A study of Mus musculus with 6 samples.

Results

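The genes described here encode mitochondrial ribosomal proteins, the protein components of the ribosome that works inside mitochondria. They were taken by name: every protein-coding gene of the deposited normalized table whose symbol begins with Mrpl (large subunit) or Mrps (small subunit) followed by a digit. This rule found 77 of the 16111 genes in the table, 48 of them named for the large subunit and 29 for the small subunit, and it used no measured value. The samples were macrophages grown from the livers of C57BL/6 RCC mouse fetuses at E13.5. One group of 3 libraries was WT and the other group of 3 was AhRR-/-, that is, deficient in Ahrr, the repressor of the aryl hydrocarbon receptor; the allele and the deleted part of the gene are not given in the sources used here. Cells of both genotypes had been expanded over 5 weeks with GM-CSF (2% of the medium), a macrophage growth factor, and the non-adherent cells were harvested. Each library was made from 100 ng of RNA and read as single 75-base reads, and the study asked which genes differed in expression between the genotypes. The labels number the mice 1 to 3 within each genotype but do not say more about how separate the cultures were, so the p-values measure the spread between these samples.

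The mitochondrial ribosome makes only the few proteins encoded in mitochondrial DNA, which are all subunits of the respiratory chain and the ATP synthase. Its ribosomal RNAs come from mitochondrial DNA, while all of its proteins are encoded in the nucleus, made on cytosolic ribosomes and imported. Some of these proteins descend from bacterial ribosomal proteins and others are found only in mitochondria. In macrophages, respiratory activity changes with the state of activation.

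Library totals ran from 3556106 counts (Ahrr-deficient replicate 1) to 41668336 counts (Ahrr-deficient replicate 2), an 11.7-fold range, and the WT libraries held 21939809, 6300421 and 7137414 counts. WT replicate 2 had 5.28% of its counts on 1 ribosomal RNA gene, against at most 0.0679% in the other libraries. Levels are therefore given as CPM, counts scaled to a common library size, with edgeR's TMM factors, which correct for such unequal composition. Ahrr itself was at 4.60, 4.74 and 5.21 CPM in WT and at 2.23, 2.47 and 1.18 CPM in the Ahrr-deficient libraries, and the groups did not overlap. It fell by 1.21 on the log2 scale (SE 0.26, adjusted p = 0.0151 in edgeR's quasi-likelihood test), although reads outside a deleted part would not check the label. All 10 macrophage markers, among them Cd68, Csf1r and Adgre1, were above 1 CPM. Their summed level was 25426 to 27817 CPM in WT and 16618 to 24421 CPM in the Ahrr-deficient libraries, and its part in the results that follow was not tested. No gene of the mast cell and basophil or lymphoid marker lists was in the table, and no listed erythroid, hepatocyte, stromal or endothelial marker exceeded 1 CPM in any library. Markers of 3 other cell types did: Zbtb46 of the dendritic cell list, Itga2b of the megakaryocyte list and S100a8 of the neutrophil list. The 2 dendritic cell markers in the table (of 5) summed to 5.14 to 6.49 CPM in WT and 4.13 to 4.89 CPM in the Ahrr-deficient libraries, and Itga2b (1 of 3) was at 2.74 to 3.00 and 1.18 to 1.95 CPM, both without overlap. The 2 neutrophil markers in the table (of 8) summed to 1.32 to 2.63 and 0.67 to 1.39 CPM. The part of these markers in the results was not tested either.

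All 77 genes were measured well enough to be tested, with a mean level from 6.01 CPM (Mrps34) to 68.9 CPM (Mrps15) and a median of 20.5 CPM. They lie on 17 chromosomes, 11 of them on chromosome 11 and 8 on chromosome 17. Of the 77, 27 have an exon that overlaps an exon of another gene on the opposite strand. Whether the counting used strand is not given in the sources used here, so in those 27 genes reads of the antisense partner cannot be told apart. An exon overlap with another gene on the same strand, which strand could not resolve, is present in 7 of the 77. Mrpl23 and Mrpl48 each have 1 named processed pseudogene and Mrps36 has 3, which could share reads with them.

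In the Ahrr-deficient macrophages 4 of the 77 genes changed: Mrpl1 and Mrpl50 rose, and Mrps15 and Mrpl14 fell. These 4 make 5.19% of the family, whereas 19.6% of all 11408 tested genes passed the same threshold (edgeR quasi-likelihood test, Benjamini-Hochberg adjusted p under 0.05 over all tested genes). By direction, 2.60% of the family rose and 2.60% fell, against 9.62% and 9.95% of all tested genes. Of the 77 genes, 17 (22.1%) had an unadjusted p under 0.05, against 35.8% of all tested genes. The count of called genes was sensitive to single libraries: without Ahrr-deficient replicate 1, 8 genes rose and 3 fell, when 32.6% of all tested genes were called. Without WT replicate 1, WT replicate 3 or Ahrr-deficient replicate 2, edgeR called none of the 77, with 9, 10 and 8 at an unadjusted p under 0.05; of all tested genes it then called 6.07%, 9.35% and 8.31%. Without WT replicate 2 it called 1 (8.15% of all tested genes), and without Ahrr-deficient replicate 3 it called 3 (10.3%). The split by direction also moved with the method. With upper-quartile scaling 1 rose and 3 fell (19.6% of all tested genes called), with DESeq2 1 rose and 1 fell (17.5%), and with limma-voom 7 rose and 3 fell (24.1%).

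The promoters of the 4 changed genes are shown first, from RefSeq (GRCm38.p6, 250 bases before to 50 bases after each annotated start), because the genes that encode mitochondrial proteins are known to share binding sites for NRF1, for the ETS factor GABP and for YY1. Beside them stand the promoters of Mrpl32, whose product is trimmed by a protease after import, and of Mrps18b, 1 of 3 relatives of the bacterial protein S18. Those 2 held the most matches among the 8 family members with at least 2 of these 3 kinds of core. Capitals mark every match, on either strand, to the ETS core CCGGAAG, the NRF1 core GCGCATGC, the YY1 core AAGATGGC, the E-box CACGTG, which Myc and related factors bind, or GCGTG, the core of the xenobiotic response element that the aryl hydrocarbon receptor binds. Matches may overlap: the forward and the reverse NRF1 core share letters in a palindromic stretch, and GCGTG can share end letters with the NRF1 core. The windows lie at chr5:96209865-96210164 (plus strand) for Mrpl1, chr17:45686099-45686398 (plus) for Mrpl14, chr4:49521034-49521333 (minus) for Mrpl50 and chr4:126046678-126046977 (plus) for Mrps15. Those of the other two lie at chr13:14612988-14613287 (minus) for Mrpl32 and chr17:35916391-35916690 (minus) for Mrps18b. Each is written in the direction of transcription.
Mrpl1: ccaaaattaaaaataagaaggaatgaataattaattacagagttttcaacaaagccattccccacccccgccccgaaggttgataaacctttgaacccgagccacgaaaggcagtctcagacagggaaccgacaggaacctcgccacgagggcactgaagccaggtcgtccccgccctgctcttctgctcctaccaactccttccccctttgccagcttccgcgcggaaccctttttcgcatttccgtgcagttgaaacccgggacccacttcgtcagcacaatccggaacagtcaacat
Mrpl14: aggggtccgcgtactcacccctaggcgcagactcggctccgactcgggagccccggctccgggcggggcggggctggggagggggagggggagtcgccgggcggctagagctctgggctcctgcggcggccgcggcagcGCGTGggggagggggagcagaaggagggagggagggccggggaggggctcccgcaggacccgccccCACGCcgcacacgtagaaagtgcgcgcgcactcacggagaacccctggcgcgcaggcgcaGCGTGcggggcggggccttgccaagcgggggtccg
Mrpl50: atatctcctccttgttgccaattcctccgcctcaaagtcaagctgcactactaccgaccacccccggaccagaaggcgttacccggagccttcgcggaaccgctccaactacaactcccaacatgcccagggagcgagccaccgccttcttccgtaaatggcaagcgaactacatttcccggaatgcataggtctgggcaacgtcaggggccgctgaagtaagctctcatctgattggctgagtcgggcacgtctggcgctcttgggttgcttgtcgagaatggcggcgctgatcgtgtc
Mrps15: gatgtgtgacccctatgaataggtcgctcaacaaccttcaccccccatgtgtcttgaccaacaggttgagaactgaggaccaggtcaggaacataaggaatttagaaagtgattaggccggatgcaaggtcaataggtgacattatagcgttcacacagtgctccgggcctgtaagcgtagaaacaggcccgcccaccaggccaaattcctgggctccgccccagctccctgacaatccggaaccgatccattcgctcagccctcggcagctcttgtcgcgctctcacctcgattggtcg
Mrpl32: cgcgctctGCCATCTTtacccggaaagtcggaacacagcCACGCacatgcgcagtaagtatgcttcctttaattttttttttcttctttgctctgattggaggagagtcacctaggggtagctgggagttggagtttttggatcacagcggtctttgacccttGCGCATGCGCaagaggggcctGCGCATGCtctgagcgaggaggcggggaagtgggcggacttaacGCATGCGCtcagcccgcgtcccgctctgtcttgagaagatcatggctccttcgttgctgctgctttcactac
Mrps18b: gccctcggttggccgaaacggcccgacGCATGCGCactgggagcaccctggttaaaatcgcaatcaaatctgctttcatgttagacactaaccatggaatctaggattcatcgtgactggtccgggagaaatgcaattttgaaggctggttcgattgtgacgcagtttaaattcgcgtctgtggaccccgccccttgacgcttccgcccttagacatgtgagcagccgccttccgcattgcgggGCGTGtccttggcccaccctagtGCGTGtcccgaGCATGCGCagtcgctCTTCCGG
The windows of Mrpl1, Mrpl50 and Mrps15 contained none of the 5 motifs. GENCODE M21 places the start of Mrpl1 at chr5:96209493, before its RefSeq window. The bases before that start were therefore not searched. Mrpl14 contained GCGTG 3 times, in a window of 78.0% GC, and none of the other motifs. Mrpl32 held 6 matches and Mrps18b held 5, and neither gene passed the test. No match says only that these letters are not in the window.

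Of the 77 genes, 68 had a promoter in the RefSeq table and 9 had none. The ETS core was in 25 of the 68 (36.8%), against 8.86% of all 32851 promoters and 22.2% of those of tested protein-coding genes. The YY1 core was in 12 (17.6%), against 2.75% and 5.86%. The NRF1 core was in 8 (11.8%), against 2.71% and 6.57%. In these counts, which were not tested, all 3 cores were more frequent in the family than in either set of promoters. The median promoter GC content was 58.5% in the family and 52.7% over all promoters, and its part in the counts was not tested. The E-box was in 5 (7.35%), against 7.15% and 12.3%. The xenobiotic response element core GCGTG was in 38 (55.9%), against 32.4% and 57.3%. Its share in the family was close to that among tested protein-coding genes. The median log2 fold change was 0.01 for the genes with GCGTG and 0.06 for those without, and 0.02 with and 0.05 without the ETS core. For the YY1 core the medians were 0.03 with and 0.04 without. They ran the other way for the NRF1 core (0.10 with, 0.02 without) and the E-box (0.05 with, 0.03 without).

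Mrpl1 (ENSMUSG00000029486.13, chr5:96209493-96266727, GRCm38) encodes the protein of the stalk beside the exit site for spent tRNAs. It was at 13.2, 13.3 and 12.3 CPM in WT and at 18.4, 18.6 and 16.9 CPM in the Ahrr-deficient libraries. The 3 Ahrr-deficient values lay close together and above all WT values. The mean rose from 13.0 ± 0.55 to 18.0 ± 0.93 CPM (SD, n = 3 each), 0.47 on the log2 scale (SE 0.11; adjusted p = 0.0183, edgeR), or 1.38-fold with a 95% interval of 1.17 to 1.63. This was the largest rise in the family. When libraries were left out in turn, it stayed past the threshold without Ahrr-deficient replicate 1 or 3. It missed it without WT replicate 1, 2 or 3 or Ahrr-deficient replicate 2 (edgeR adjusted p = 0.0869, 0.0587, 0.0758 and 0.0844), with a log2 fold change of 0.42 to 0.50 over the 6 fits.

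Mrpl50 (ENSMUSG00000044018.3, chr4:49512596-49521093) encodes a protein found only in mitochondrial ribosomes. It was at 22.1, 21.6 and 26.2 CPM in WT and at 28.7, 30.3 and 29.3 CPM in the Ahrr-deficient libraries. WT replicate 3 was the highest WT library and still below the Ahrr-deficient ones. The mean rose from 23.3 ± 2.53 to 29.4 ± 0.82 CPM, by 0.35 on the log2 scale (SE 0.11; adjusted p = 0.0484, edgeR). It stayed past the threshold in 4 of 16 alternative analyses. Of the 6 fits without a library, it passed only in the one without Ahrr-deficient replicate 1. Without any 1 of the other 5 libraries, the edgeR adjusted p was between 0.0505 (without WT replicate 3) and 0.207 (without WT replicate 1).

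Mrps15 (ENSMUSG00000028861.13, chr4:126046925-126055532) encodes the relative of bacterial S15, which binds the RNA of the small subunit early in its assembly. It was at 80.2, 73.7 and 84.3 CPM in WT and at 63.8, 53.9 and 57.6 CPM in the Ahrr-deficient libraries. The lowest WT library was above the highest Ahrr-deficient library. The mean fell from 79.4 ± 5.35 to 58.4 ± 5.00 CPM, which is -0.46 on the log2 scale (SE 0.09; adjusted p = 0.0125, edgeR), or 0.728-fold with a 95% interval of 0.628 to 0.843. Its adjusted p was the lowest in the family. It stayed past the threshold in 12 of 16 alternative analyses, and it missed it without WT replicate 1, WT replicate 3 or Ahrr-deficient replicate 2 (edgeR adjusted p = 0.0711, 0.0561 and 0.0506) and with the replicate number as a block together with GC offsets (0.0703).

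Mrpl14 (ENSMUSG00000023939.7, chr17:45686322-45698495) encodes a large-subunit protein at the face that meets the small subunit. Its exons overlap those of Tmem63b on the opposite strand. It was at 22.1, 21.8 and 19.1 CPM in WT and at 15.6, 14.5 and 17.7 CPM in the Ahrr-deficient libraries. The groups did not overlap, and their nearest values were both those of replicate 3. The mean fell from 21.0 ± 1.67 to 15.9 ± 1.60 CPM, which is -0.41 on the log2 scale (SE 0.12; adjusted p = 0.0413, edgeR). It missed the threshold without WT replicate 1, 2 or 3 or Ahrr-deficient replicate 2 (edgeR adjusted p = 0.186, 0.119, 0.0623 and 0.159).

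The other 73 genes did not pass the test. Over the whole family the log2 fold change had a median of 0.03, with the central part (first to last quartile) from -0.06 to 0.18, against a median of 0.01 and quartiles of -0.23 and 0.22 over all tested genes. The extremes were Mrpl1 and Mrps34, at 0.47 and -0.48. The absolute change was under 0.2 on the log2 scale in 51 of the 77 genes, against 46.0% of all tested genes. For 59 of the 77 the 95% interval of the change lay within 1.5-fold either way, against 55.3% of all tested genes, and for all 77 it lay within 2-fold. Among the 7504 tested genes with a mean of 5 to 100 CPM, a range that covers the family, 18.8% passed the test.

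**Figure D1:**
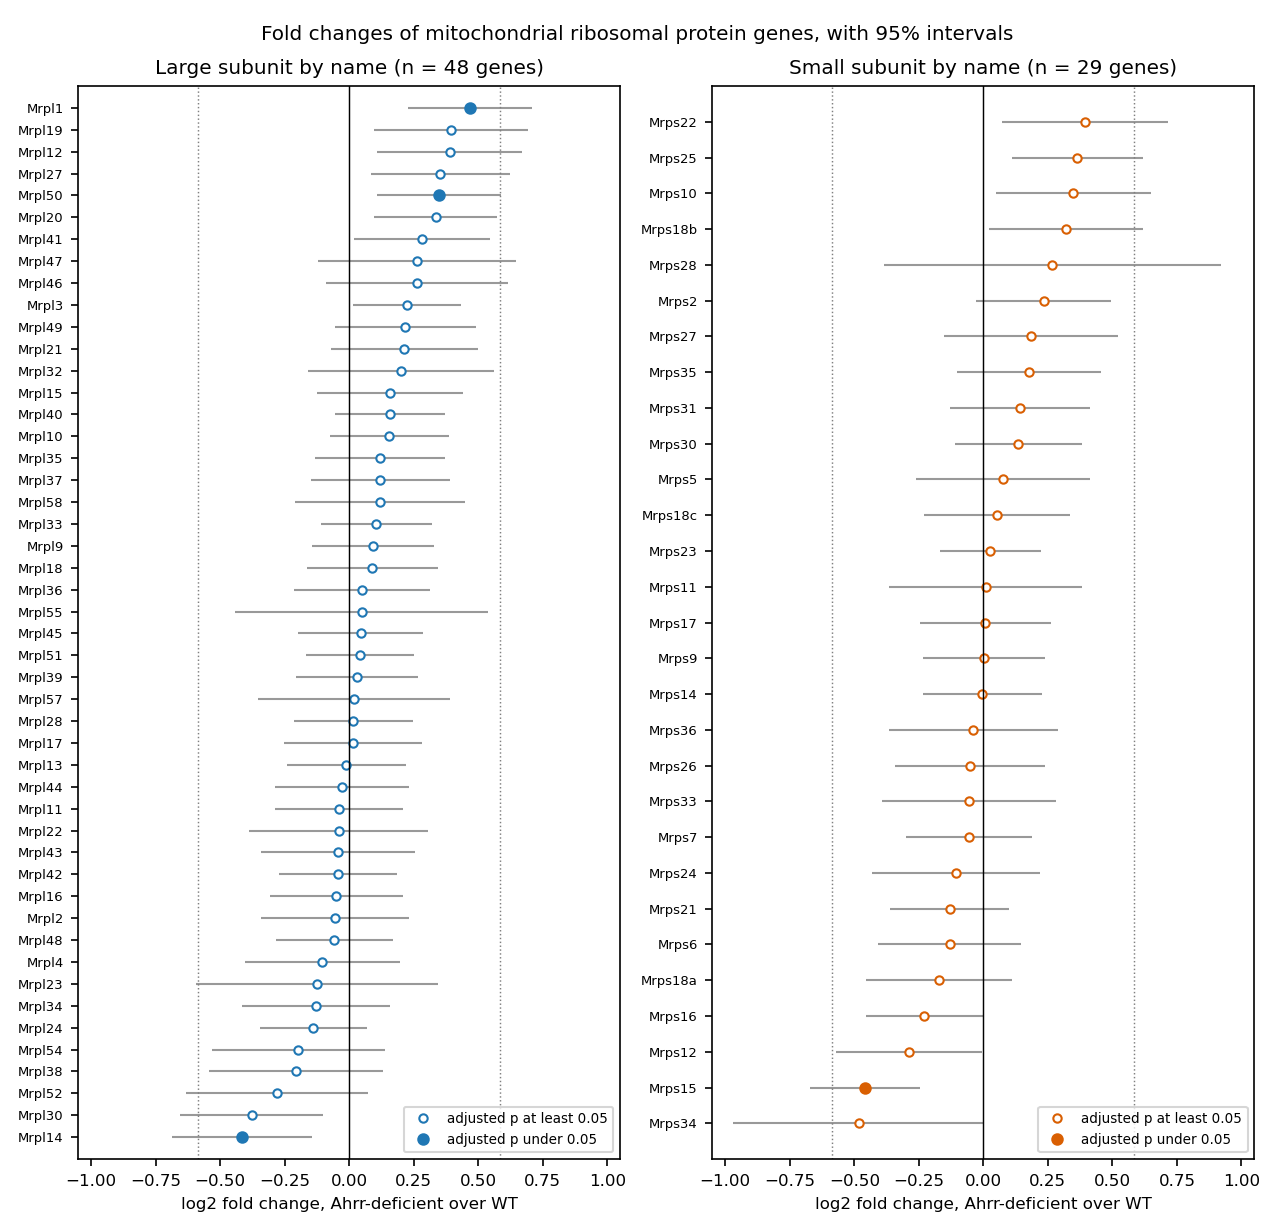
Fitted log2 fold change (Ahrr-deficient over WT) of each of the 48 Mrpl genes (left) and 29 Mrps genes (right), ordered by size; lines are 95% intervals, filled points passed the test and dotted lines mark 1.5-fold. The changes centre near 0, and 3 Mrpl genes and 1 Mrps gene passed.

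Among the 48 Mrpl genes, 2 rose and 1 fell (6.25%, against 19.6% of all tested genes), with a median log2 fold change of 0.05. Among the 29 Mrps genes, edgeR called 0 higher and 1 lower (3.45%). Their median was 0.01, with 7 genes at an unadjusted p under 0.05 in either direction. DESeq2 called the same single Mrps gene, Mrps15 (17.5% of all tested genes called). Limma-voom called Mrps15 lower and Mrps22 and Mrps25 higher (24.1% of all tested genes called). Of the 46 genes with a bacterial counterpart, 1 rose and 2 fell (6.52%, median 0.02). Of the 30 classed as found only in mitochondria, 1 rose (Mrpl50) and edgeR called 0 lower (3.33%, median 0.04, 5 at an unadjusted p under 0.05). This class includes Mrps18a and Mrps18b, although they are relatives of bacterial S18, because only Mrps18c was counted as its counterpart. No class had a median far from that of all tested genes, 0.01.

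Groups that do not overlap in any library were seen in 11 genes that were higher in the Ahrr-deficient libraries (14.3% of the family, against 19.2% of all tested genes). In 8 genes they were lower (10.4%, against 19.6%). The shares were below those of all tested genes in both directions. Several of these genes, named here after their values were seen, fell just short of the threshold. Mrps25, a small-subunit protein found only in mitochondria, was at 14.8, 14.4 and 14.1 CPM in WT and 16.1, 20.0 and 18.5 CPM in the Ahrr-deficient libraries (log2 fold change 0.36, edgeR adjusted p = 0.0512). Mrpl20, a bacterial-type protein of the large subunit, was at 24.7, 23.0 and 21.1 CPM and at 26.5, 30.6 and 29.2 CPM (0.33, adjusted p = 0.0534). Mrpl12, which forms the stalk that recruits translation factors, was at 19.0, 16.1 and 19.8 CPM and at 20.3, 26.2 and 24.3 CPM (0.39, adjusted p = 0.0560). In each of the 3 genes the lowest Ahrr-deficient library was replicate 1. Without that library all 3 passed the test (edgeR adjusted p = 0.0151, 0.0175 and 0.0120), when 32.6% of all tested genes were called. Leaving out their lowest Ahrr-deficient value widens the difference by construction, so these passes add no support. Mrpl30, a bacterial-type protein of the large subunit, had the opposite sign: it was at 46.9, 48.1 and 41.7 CPM in WT and 28.1, 36.6 and 38.5 CPM in the Ahrr-deficient libraries (-0.38, adjusted p = 0.0601).

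Mrps34, a small-subunit protein found only in mitochondria, had the most negative change and did not pass. It was at 7.05, 7.72 and 7.27 CPM in WT and at 3.06, 6.25 and 4.72 CPM in the Ahrr-deficient libraries. The value of 3.06 CPM rests on 11 counts, the lowest count of any family member in any library. The log2 fold change was -0.48 with a 95% interval of -0.97 to 0.00 (edgeR adjusted p = 0.142). Exons of Mrps34 overlap those of Mapk8ip3 on the opposite strand and those of Nme3 on the same strand. Mrps28 was the least certain: it was at 8.83, 4.56 and 9.60 CPM in WT and 5.29, 11.9 and 8.84 CPM in the Ahrr-deficient libraries, and its interval reached from -0.38 to 0.92. Both groups of Mrps28 contained a low library.

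Some products do not sit where their gene's name says. Mrps30 and Mrps18a are named for the small subunit but are known to sit in the large one. Mrps30 was at 17.6 ± 1.58 CPM in WT and 19.4 ± 1.13 CPM in the Ahrr-deficient libraries (log2 fold change 0.14, edgeR adjusted p = 0.404). Mrps18a was at 26.0 ± 1.36 and 22.3 ± 3.70 CPM (-0.17, adjusted p = 0.354). Mrps36, now regarded as a subunit of the 2-oxoglutarate dehydrogenase complex, was at 8.48 ± 1.00 and 8.40 ± 0.53 CPM (-0.04, adjusted p = 0.878). None of these 3 genes passed the test. With genes placed by particle instead of by name, 2 of 50 large-particle genes rose and 1 fell, and of 26 small-particle genes 1 fell. The shares called were 6% of the large-particle and 3.85% of the small-particle genes, against 19.6% of all tested genes.

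The summed level of the family was nearly equal in the genotypes. The 77 genes summed to 1743, 1666 and 1724 CPM in WT and to 1550, 1817 and 1769 CPM in the Ahrr-deficient libraries. The WT libraries lay between the lowest and the next Ahrr-deficient library. The means were 1711 ± 40.0 and 1712 ± 142 CPM, a ratio of 1.00, and the SD was larger in the Ahrr-deficient group. The Mrpl genes summed to 1083 ± 28.5 CPM in WT and 1103 ± 104 CPM in the Ahrr-deficient libraries. The Mrps genes summed to 628 ± 11.6 and 609 ± 38.6 CPM. Within the Mrps sum, Mrps15 alone fell from 79.4 to 58.4 CPM, and 16 of the 29 genes had a positive and 13 a negative log2 fold change. The ratio of the Mrpl sum to the Mrps sum was 1.73, 1.71 and 1.73 in WT and 1.74, 1.84 and 1.85 in the Ahrr-deficient libraries. With 3 libraries a group, an exact permutation test of such a sum cannot give a 2-sided p below 0.10, so none was made.

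**Figure D2:**
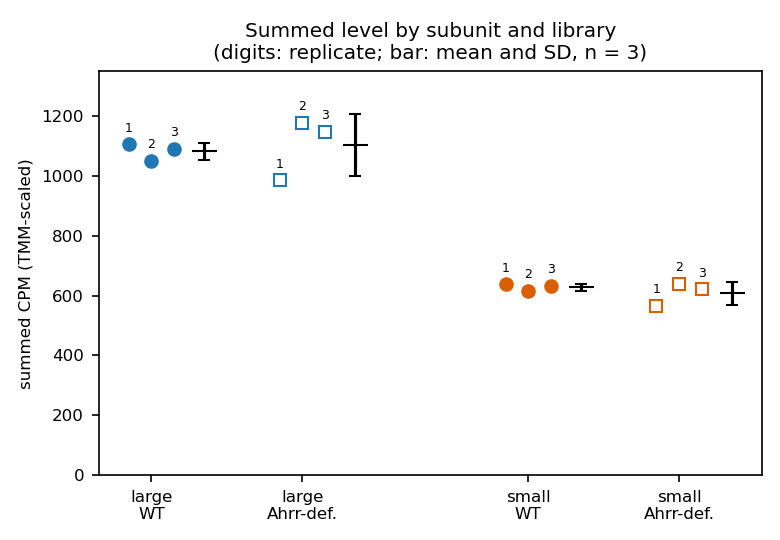
Summed TMM-scaled CPM of the 48 Mrpl genes (large, circles and squares at left) and the 29 Mrps genes (small, at right) in each library, with the mean and SD of 3 libraries. For both subunits the lowest library is Ahrr-deficient replicate 1, at 985 and 565 CPM.

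Much of the variation was between libraries of 1 genotype. Of the 77, 41 had their lowest level in Ahrr-deficient replicate 1 and 32 had their highest in Ahrr-deficient replicate 2. Relative to each gene's mean over the 6 libraries, the median log2 level of the family was -0.11 in Ahrr-deficient replicate 1 and 0.10 and 0.06 in replicates 2 and 3. In WT it was 0.00, -0.06 and 0.00. Over all tested genes the same medians lay between -0.02 and 0.03, a range that TMM scaling keeps near 0 by construction. Cytosolic ribosomal protein genes also summed lowest in Ahrr-deficient replicate 1, at 18425 CPM against 23334 to 26364 CPM in the other libraries. So did nuclear genes for oxidative phosphorylation subunits, at 6179 CPM against 6408 to 7751 CPM. Ahrr-deficient replicate 1 is also the library with the fewest counts, and replicate 2 the one with the most; the part of depth in this pattern was not tested beyond thinning, under which 3 of the 4 called genes passed (12.3% of all tested genes were called).

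**Figure D3:**
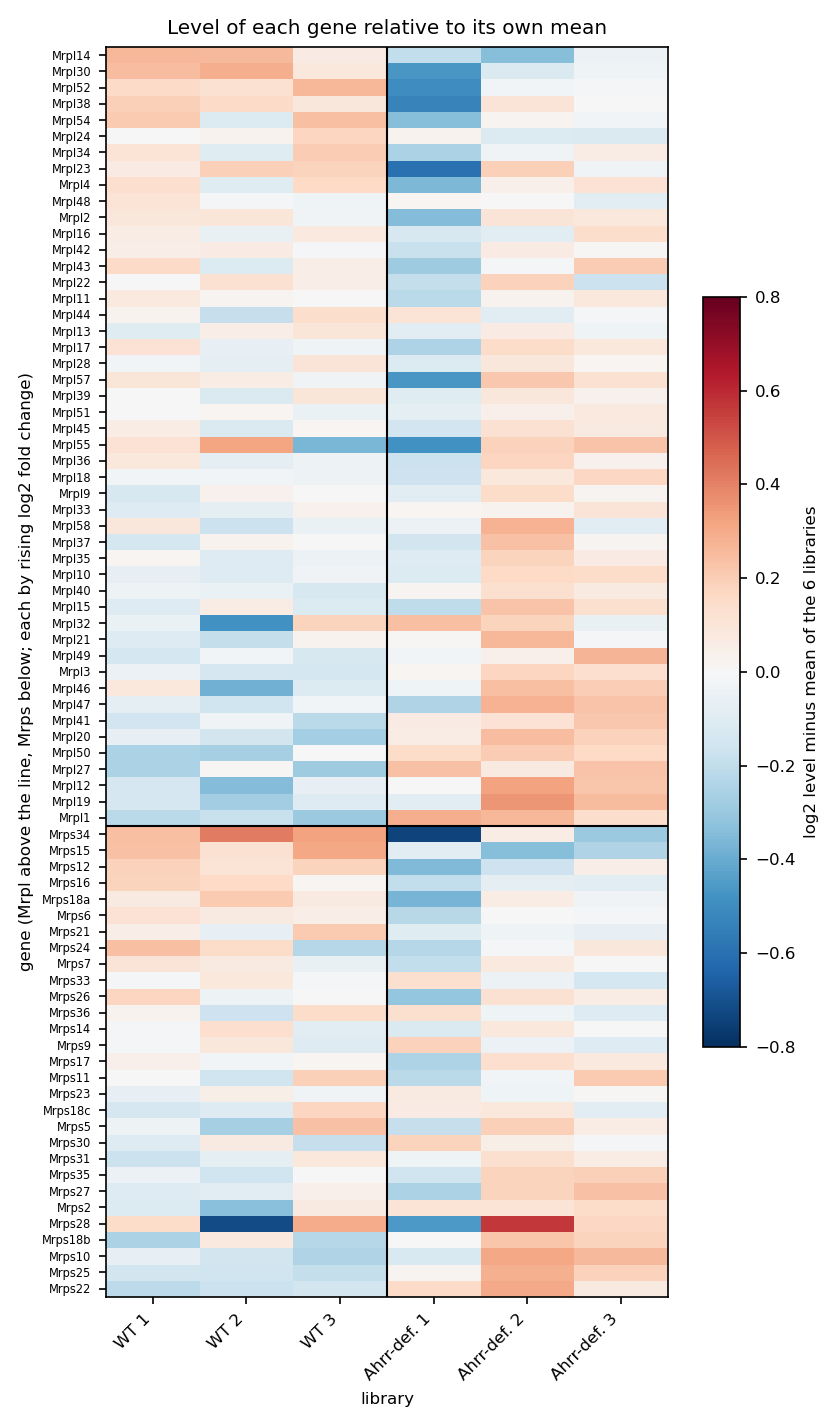
Log2 level of each of the 77 genes in each library minus its mean over the 6 libraries (colour, from -0.8 blue to 0.8 red), Mrpl genes above the line and Mrps genes below it. The column of Ahrr-deficient replicate 1 is mostly blue (41 genes have their lowest level there) and that of replicate 2 mostly red.

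The change also ran with base composition. Across the 77 genes the log2 fold change correlated with the GC content of the gene's transcripts at Pearson r = -0.41 (Spearman rho = -0.36), against r = -0.20 (rho = -0.29) across 11394 tested genes; genes share libraries and are not independent replicates, so no p is given. The 2 genes that rose were among the 26 with the lowest GC content (39.8% to 47.6%), and the 2 that fell were among the 26 with the highest (52.4% to 60.8%). The median log2 fold change was 0.05 in the low-GC genes, 0.12 in the 25 between and -0.08 in the high-GC genes. In Ahrr-deficient replicate 1 the deviation from a gene's mean fell with GC content (r = -0.53), and in WT replicate 1 it went the other way (r = 0.51). Without Ahrr-deficient replicate 1 the correlation of the fold change with GC content was -0.33.

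With an offset for each library's GC trend the correlation was 0.03, which removing that trend makes small by construction. With the offset 5 genes passed the test (17.5% of all tested genes were called). Mrpl12, Mrpl20 and Mrpl27 rose and Mrpl30 and Mrps15 fell in that fit, so that Mrps15 was the only 1 of the 4 reported genes that was also called. Whether the GC trend comes from the libraries or the genotype cannot be told apart with these samples. The fold change also correlated with transcript length, at r = 0.33 (rho = 0.34).

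**Figure D4:**
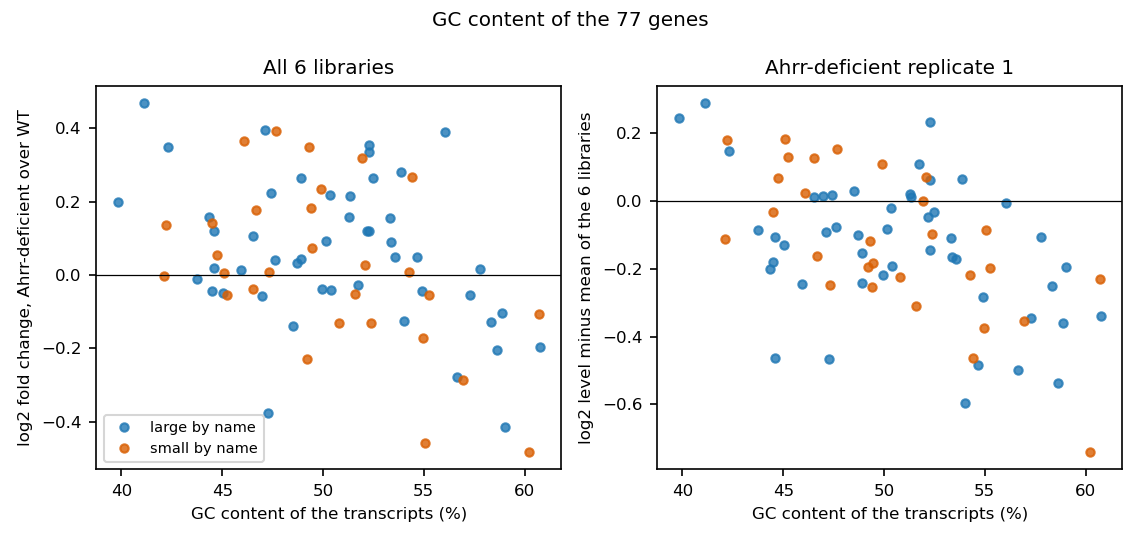
GC content of the transcripts (horizontal, %) against the log2 fold change over all 6 libraries (left) and against the log2 level of Ahrr-deficient replicate 1 minus the mean of the 6 libraries (right), 1 point per gene, with 48 Mrpl genes in blue and 29 Mrps genes in orange. Points fall from left to right in both panels (r = -0.41 and -0.53).

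Levels were compared between genes as CPM per kilobase of the principal transcript, averaged over the 6 libraries. The median was 13.9 CPM per kilobase, with quartiles of 7.59 and 22.6. It was 15.7 for Mrpl genes and 10.9 for Mrps genes. Cytosolic ribosomal protein genes had a median of 348 and nuclear genes for oxidative phosphorylation subunits 73.2 on the same scale. The highest of the family was Mrps15, the gene that fell, at 73.5 CPM per kilobase, followed by Mrps21 at 57.6. The highest Mrpl genes were Mrpl33, Mrpl42 and Mrpl30 at 48.0, 41.8 and 41.3. The lowest were Mrpl47 at 2.39, Mrps25 at 2.69 and Mrpl19 at 3.91, and Mrpl1, the gene with the largest rise, stood at 4.35. Mrps5 and Mrps35 lay between Mrpl19 and Mrpl1, and Mrps18a, the next highest Mrps gene, was at 27.3. The order depends on the length used. With the merged exons of each gene, a length chosen after seeing the data, Mrps15 stayed highest of the Mrps genes at 40.7, but Mrpl33 stood at 3.13, Mrpl42 at 7.56, Mrpl30 at 12.4 and Mrps18a at 6.54.

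Many of the genes share a start region with a neighbour. An opposite-strand protein-coding gene started within 1000 bases of 33 of the 77 (42.9%), against 17.9% of 10577 tested protein-coding genes. Mrpl46 and Mrps11 are each other's neighbour, so these are 32 distinct pairs, and in 28 of them both genes were tested. In these 28 pairs 4 neighbours passed the test, a smaller share than the 19.6% of all tested genes. The neighbours Tcp1, Rab6a and Ptcd2 rose, by 0.28, 0.44 and 0.56 on the log2 scale (edgeR adjusted p = 0.0383, 0.0120 and 0.00637). Fau, a ribosomal protein gene that starts 59 bases from Mrpl49, was lower, at -0.50 (edgeR adjusted p = 0.0351). The partners of these 4 genes, Mrpl18, Mrpl48, Mrps27 and Mrpl49, did not pass the test. Zfp189, which starts 83 bases from Mrpl50, stood at -0.04 on the log2 scale (edgeR adjusted p = 0.955). Tmem63b, the neighbour of Mrpl14, stood at 0.10 (edgeR adjusted p = 0.515). Over the 28 pairs the fold changes of partners correlated at r = -0.10 (rho = -0.24).

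The other 5 tested proteins of the mitochondrial ribosome, whose symbols do not follow the rule, did not pass the test. Dap3 and Ptcd3, small-subunit proteins found only in mitochondria, had log2 fold changes of 0.18 and 0.21, Chchd1 0.01, Gadd45gip1 -0.06 and Aurkaip1 -0.26. EdgeR, DESeq2 and limma-voom each called 0 of them, and 0 had an unadjusted p under 0.05 in edgeR.

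Of 28 factors that build the mitochondrial ribosome, 3 rose and 1 fell, with a median of 0.00. This is 14.3% of the list, a smaller share than the 19.6% of all tested genes that passed. Mrm3, which methylates the large ribosomal RNA, rose by 0.95 (edgeR adjusted p = 0.0213). Its levels were low, at 2.28, 1.93 and 1.92 CPM in WT and 3.06, 4.69 and 3.63 CPM in the Ahrr-deficient libraries. Mrm1, another methyltransferase of that RNA, fell by 0.60 (adjusted p = 0.0392). Ndufab1, the mitochondrial acyl carrier protein, rose by 0.47 and Mettl17, which acts in assembly of the small subunit, by 0.38 (adjusted p = 0.0401 and 0.0459). DESeq2 called 1 of the 28, and edgeR called none when WT replicate 1 or 2 or Ahrr-deficient replicate 2 was left out.

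In the next 3 lists the shares that passed were 7.14%, 10.0% and 8.70%, each below the 19.6% of all tested genes. Of 14 mitochondrial translation factors, 1 rose: Lrpprc, which stabilizes mitochondrial mRNAs, by 0.42 (SE 0.09; adjusted p = 0.0140, edgeR). Lrpprc was at 56.9, 49.9 and 53.6 CPM in WT and 68.2, 75.7 and 70.1 CPM in the Ahrr-deficient libraries. Of 20 genes for mitochondrial tRNA charging, Qrsl1, a subunit of the enzyme that makes glutaminyl-tRNA, rose by 0.72 and Mars2, the methionyl-tRNA synthetase, by 0.57 (adjusted p = 0.0135 and 0.0194). Of 23 genes for mitochondrial transcription and RNA processing, Trmt10c, a subunit of mitochondrial RNase P, rose by 0.38 (adjusted p = 0.0369). In the same list Polg, the mitochondrial DNA polymerase, fell by 1.35 (adjusted p = 0.00228), from 15.3 ± 2.55 to 5.80 ± 0.20 CPM. Tfam, which packages mitochondrial DNA, was at 28.6 ± 4.23 and 28.7 ± 4.12 CPM (log2 fold change 0.06). Of these genes Polg passed without any 1 of the 6 libraries, whereas Lrpprc, Qrsl1, Mars2 and Trmt10c passed in 2, 3, 2 and 1 of the 6 fits.

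Of 15 listed genes of mitochondrial DNA, 10 were in the table and 9 were tested, so the others are not covered here. EdgeR called 0 of these 9, with 3 at an unadjusted p under 0.05. DESeq2 and limma-voom also called 0 (DESeq2 gave no adjusted p for mt-Rnr1 and mt-Rnr2). Their median log2 fold change was 0.15, but it was 0.04 without Ahrr-deficient replicate 1 and -0.02 with GC offsets. Without WT replicate 3 edgeR called 1 of them lower. Among the tested messengers mt-Co1, a subunit of cytochrome oxidase, had the highest level. It was at 9389 ± 644 CPM in WT and 10413 ± 1325 CPM in the Ahrr-deficient libraries. The ribosomal RNAs of the mitochondrial ribosome stood apart in WT replicate 2. In that library mt-Rnr1 was at 3663 CPM against 146 to 246 CPM in the other 5, and mt-Rnr2 was at 7727 CPM against 371 to 606 CPM. With all libraries mt-Rnr1 stood at -2.85 on the log2 scale (adjusted p = 0.0667, edgeR), and without WT replicate 2 it was -0.34 (adjusted p = 0.288). For mt-Rnr2 the values were -2.60 and 0.11. Lars2, the mitochondrial leucyl-tRNA synthetase, was at 15059 CPM in WT replicate 2 against 87.3 to 293 CPM elsewhere, and its log2 fold change went from -4.50 (adjusted p = 0.0854, edgeR) to 0.77 without that library.

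Of 11 listed regulators of nuclear genes for mitochondria, 4 rose (36.4%, against 9.62% of all tested genes). This list was chosen with earlier results of these data known, so the 2 shares cannot serve as a test of the regulators. Without Ahrr-deficient replicate 1, 5 rose, when 32.6% of all tested genes were called in either direction. Without any 1 of the other libraries, 2 rose, when 6.07% to 10.3% of all tested genes were called. Myc rose most, from 26.8, 19.0 and 18.7 CPM in WT to 71.8, 107 and 160 CPM in the Ahrr-deficient libraries (2.37 on the log2 scale, SE 0.27; adjusted p = 0.00184, edgeR). Ppargc1b and Pprc1, coactivators of the PGC-1 family, rose by 0.88 and 0.61 (adjusted p = 0.00634 and 0.0375). Gabpb2, a partner of GABP, rose by 0.28 (adjusted p = 0.0424). Myc and Ppargc1b passed without any 1 of the 6 libraries, and Pprc1 and Gabpb2 passed only without Ahrr-deficient replicate 1. Of Myc, Nrf1, Gabpa and Yy1, which bind cores counted in the promoters, only Myc passed the test. The E-box, which Myc binds, was in 5 of the 68 family promoters (7.35%, against 12.3% for tested protein-coding genes). Of those 5 genes 0 were called, against 5.19% of the family and 19.6% of all tested genes. So few genes cannot show a difference in share, and a part of Myc in the results was not tested. Nrf1, Gabpa and Yy1 had log2 fold changes of 0.08, 0.29 and -0.01 and did not pass (adjusted p = 0.653, 0.0909 and 0.919).

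For comparison, 76 cytosolic ribosomal protein genes had a median log2 fold change of -0.23, with 9 lower and 0 higher in edgeR (28 at an unadjusted p under 0.05). The 9 are 11.8% of the list, against 9.95% of all tested genes that were called lower. DESeq2 called 15 lower and 1 higher, and limma-voom 14 and 1. Without Ahrr-deficient replicate 1 the median was -0.13, with 14 lower and 2 higher, when 32.6% of all tested genes were called. Leaving out WT replicate 1, 2 or 3 or Ahrr-deficient replicate 2 or 3 left 1, 2, 3, 3 and 4 lower, and the replicate block left 4 (6.07%, 8.15%, 9.35%, 8.31%, 10.3% and 12.2% of all tested genes called). The 76 nuclear genes for oxidative phosphorylation subunits had a median of 0.06, with 2 higher and 2 lower (5.26%, against 19.6% of all tested genes). Without Ahrr-deficient replicate 1 the median was 0.14, with 18 of 77 higher and 5 lower, a smaller share than the 32.6% of all tested genes called in that fit. Without Ahrr-deficient replicate 2 or 3 or WT replicate 2 the median was 0.00, 0.01 and 0.02. A difference between these families and the mitochondrial ribosomal proteins was not tested.

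**Figure D5:**
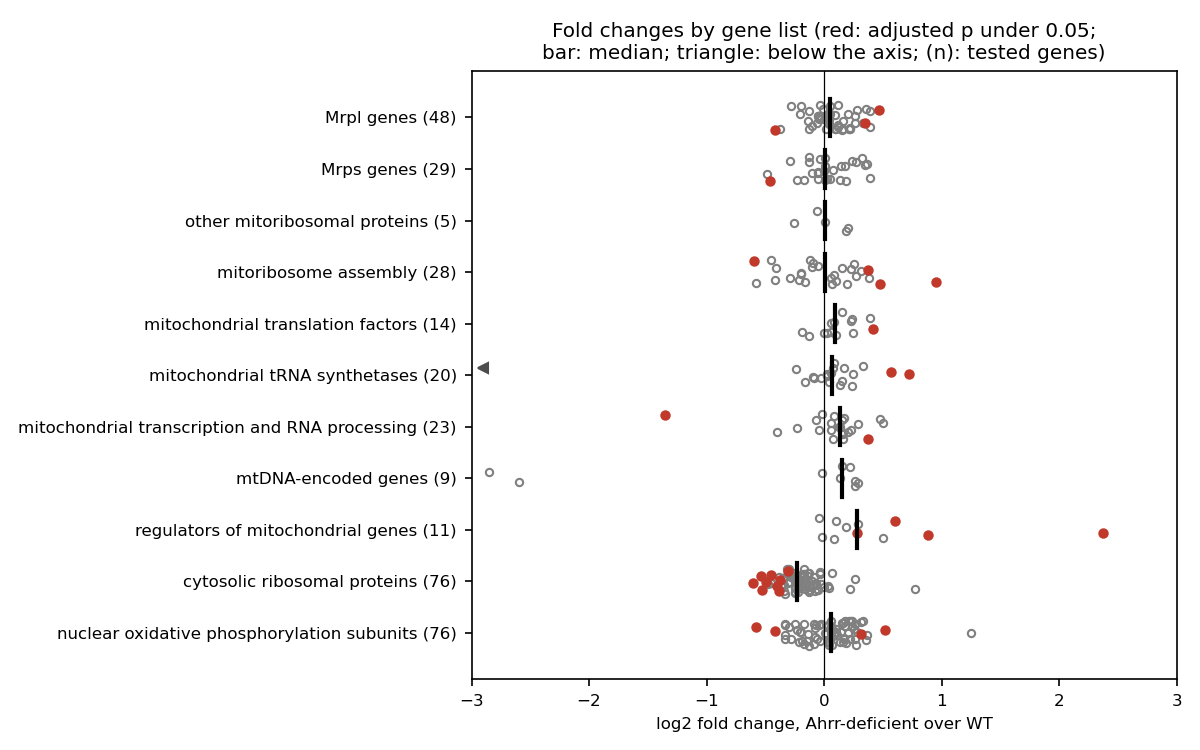
Fitted log2 fold change (Ahrr-deficient over WT) of each tested gene of the family and of the related lists; red points passed the test, black bars are medians, numbers in brackets count tested genes and triangles mark values below the axis. The Mrpl and Mrps medians (0.05 and 0.01) sit near 0, the median of the cytosolic ribosomal proteins at -0.23 and that of the regulators at 0.28.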

How the data were processed

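Polyadenylated RNA of 6 macrophage libraries (3 WT, 3 Ahrr-deficient) was made into cDNA with the Tru-Seq RNA kit v2 and read on a HiSeq1500, per the labels' protocols. The submitters' processing notes list CASAVA 1.8.2, fastp 0.20.0, STAR 2.7.10b, SAMtools 1.16.1, R 4.3.1, DESeq2 1.40.2 and the build mm10, with no roles; the read counter, the annotation and the strand setting are not given in the sources used here.

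The authors deposited whole-number read counts per gene for 53465 features. They also deposited a second table of DESeq2-normalized values (a signal scaled per library), which holds 16111 annotated genes. Of its values, 100% were whole multiples of 1 read (tolerance 0.001), and the recomputed size factors differed from the deposited ones by at most 0.009%. The tables were joined on the recovered reads, and 16094 genes matched GENCODE M21 by identifier. Counts on a row without a gene identifier, 0.0232% to 0.0511% of a library, stayed in the library totals. These rows were not among the 11408 genes of the reported fit and entered only the alternative without a filter, with 24416 tested.

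The counts as deposited were tested with edgeR 4.0.16 (quasi-likelihood, TMM scaling, filterByExpr, genotype only; R 4.3.3), with Benjamini-Hochberg adjustment over 11408 genes and a threshold of 0.05. Intervals of 95% come from the fitted SE and cover the spread between libraries. A library's floor of 3 counts is 0.072 to 0.844 CPM. Log2 levels by library used a prior count of 2. Alternatives were other scalings and filters, DESeq2 1.42.0, limma-voom (limma 3.58.1), a replicate block, thinning, offsets for GC content, and leaving out each library. The procedure was tested on simulated data. The labels number mice 1 to 3 in both genotypes; the numbers were assumed to mark different fetuses, so the replicate number was no block in the reported fit. Values were prepared with Python 3.11.15, pandas 2.3.3 and scipy 1.17.1.

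The members, gene lists and naming rule were chosen with earlier results of these data known. The rule named every family member past the threshold (at most 12 a direction), the 3 highest and 3 lowest per length in each subunit, Mrps18a, Mrps30 and Mrps36, and up to 4 called genes per related list and direction. Promoters come from RefSeq (GRCm38.p6). Protein sequences and Mrpl53 were not analysed here.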

Additional observations from a re-analysis of the deposited data

How the results depend on the processing

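Of 699 fold changes of 44 single genes recomputed under 16 alternatives (genes outside the naming rule were added after seeing the data), 545 kept their direction and their side of the threshold; 115 passed only in the reported fit and 25 only in an alternative. DESeq2 gave no adjusted p for Lars2, mt-Rnr1 and mt-Rnr2. The other 14 changed sign, and 0 of these passed in either fit; the cause was not tested. They were Mrps36 (0.035) and Nrf1 (-0.024) after thinning, Tfam (-0.036) with GC offsets, and Tfam (-0.098) and Mrps30 (-0.00095) with the replicate block and GC offsets. When each library was left out in turn, the values ran from -0.11 to 0.011 for Mrps36 (positive without WT replicate 3), -0.11 to 0.0036 for Mrpl42 (positive without Ahrr-deficient replicate 1), -0.041 to 0.18 for Mrps5 (negative without WT replicate 2 or Ahrr-deficient replicate 2) and -0.077 to 0.40 for Mrps28 (negative without Ahrr-deficient replicate 2). For Tfam they ran from -0.080 to 0.15 (negative without WT replicate 1 or Ahrr-deficient replicate 2), for Lars2 from -5.07 to 0.77 and for mt-Rnr2 from -3.12 to 0.11 (both positive without WT replicate 2). The reported fit called 2 family members higher and 2 lower, 2232 of all genes and 26 genes of the related lists. Members higher numbered 1 with upper-quartile scaling, with DESeq2 and after thinning to the smallest total, and 7 with limma-voom; members lower numbered 1 with DESeq2. Thinning gave 1272 of all genes and 15 of the related lists, and no filter gave 42 of the related lists.

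Leaving out each library in turn gave 0 to 8 members higher (11 in either direction without Ahrr-deficient replicate 1), 0 to 3 lower, 694 to 3857 of all genes and 4 to 59 genes of the related lists. The median log2 fold change of the family ran from -0.027 without Ahrr-deficient replicate 2, a reversed sign, to 0.089 without Ahrr-deficient replicate 1, against 0.032 as reported; the cause was not tested.

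Samples share only a number: deviations of same-numbered libraries correlated at -0.17, 0.07 and 0.13. With the replicate block edgeR called 0 members higher and 1 lower (11 at an unadjusted p under 0.05), 1390 of all genes and 12 of the related lists. The replicate block with GC offsets gave 0 and 0 (7 at an unadjusted p under 0.05), 1210 and 12. Depth limits the family most in Ahrr-deficient replicate 1, where 1 gene had 11 counts.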
